A study of Mus musculus with 6 samples.

Results

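Skeletal muscle and heart are lineages foreign to the kidney, and 8 transcription factor genes of these lineages were described in 2 kidney cell lines, mK3 and mK4. The genes were chosen by name, as the rows whose symbol is Myod1, Myf5, Myf6, Myog, Hand1, Hand2, Isl1 or Mef2c. All 8 were found, each as 1 row, among 21937 genes. Both lines are immortalized, come from E11.5 (embryonic day) metanephric kidney and are labelled as strain CD1. The labels name no treatment or allele. Chromatin immunoprecipitation sequencing (ChIP-seq) was done once per line for each of 2 antibodies, named H3K4 and H3K27 in the labels, and an input was sequenced beside them, so the 6 groups hold 1 library each. The series title places the work in the study of nephron progenitor fate.

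MyoD, Myf5, Mrf4 (the product of Myf6) and myogenin are basic helix-loop-helix (bHLH) proteins that bind a DNA motif called the E-box together with E-proteins and switch on muscle genes. Hand1, Hand2, Isl1 and Mef2c act in the progenitors of the heart, and Mef2c also works beside the myogenic bHLH proteins in skeletal muscle. In cells of other lineages such developmental regulators are commonly held silent by Polycomb proteins, whose mark is trimethylated H3K27, while methylated H3K4 is found at active promoters. The labels do not state a degree of methylation for either antibody. The catalogue number given for the H3K4 antibody, ab8898, is generally known as that of an antibody to trimethylated H3K9. The name H3K4 is kept as in the labels, and which modification was recovered was not tested.

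The values are reads counted over the exons of each gene, so signal upstream of the first exon is not part of them. Library totals lay between 311409 reads in the mK3 input and 714011 in mK4 H3K4. At the 8 genes the counts were low, from 0 to 73 reads per gene and library. With 1 library per group there was no replicate check and no test, and the printed intervals are 95% counting intervals, which understate the true error. Less mark per cell and fewer cells with the mark cannot be told apart. The data hold no RNA, so the identity of the lines was read only from chromatin. Of 14 metanephric factor genes, 1 was marked by H3K4 in each line (Hoxc11 in mK3 and Foxd1 in mK4), where marked means at least 2-fold over the input of the same line. This is near the share of all genes so marked, 4.94% in mK3 and 3.69% in mK4.

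Promoter sequences were matched for 5 of the 8 genes, Myf5, Myog, Hand2, Isl1 and Mef2c. The 4 genes with 1 listed promoter each are printed. Each runs from 250 bases before to 50 bases after the start of the gene, 5′ to 3′ on the strand of the gene, from RefSeq on build GRCm38.p6, with CpG dinucleotides in capitals. The intervals are chr10:107486085-107486384 (minus strand) for Myf5, chr1:134289754-134290053 (plus) for Myog, chr8:57320733-57321032 (plus) for Hand2 and chr13:116309639-116309938 (minus) for Isl1.
Myf5: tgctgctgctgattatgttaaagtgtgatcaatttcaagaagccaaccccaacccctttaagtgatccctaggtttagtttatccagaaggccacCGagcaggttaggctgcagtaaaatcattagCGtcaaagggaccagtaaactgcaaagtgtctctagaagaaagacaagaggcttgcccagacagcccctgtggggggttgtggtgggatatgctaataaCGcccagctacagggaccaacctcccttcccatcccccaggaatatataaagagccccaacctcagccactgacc
Myog: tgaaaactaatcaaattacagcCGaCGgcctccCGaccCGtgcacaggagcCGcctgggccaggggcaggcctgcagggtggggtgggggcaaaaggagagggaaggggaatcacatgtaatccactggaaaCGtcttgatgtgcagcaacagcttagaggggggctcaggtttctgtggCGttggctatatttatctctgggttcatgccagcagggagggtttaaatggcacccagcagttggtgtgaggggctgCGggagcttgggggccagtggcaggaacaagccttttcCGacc
Hand2: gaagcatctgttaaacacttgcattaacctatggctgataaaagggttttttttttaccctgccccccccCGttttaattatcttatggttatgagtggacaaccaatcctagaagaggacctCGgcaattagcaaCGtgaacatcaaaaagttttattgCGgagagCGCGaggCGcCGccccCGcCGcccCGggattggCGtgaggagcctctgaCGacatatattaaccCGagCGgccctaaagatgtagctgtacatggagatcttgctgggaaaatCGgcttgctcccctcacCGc
Isl1: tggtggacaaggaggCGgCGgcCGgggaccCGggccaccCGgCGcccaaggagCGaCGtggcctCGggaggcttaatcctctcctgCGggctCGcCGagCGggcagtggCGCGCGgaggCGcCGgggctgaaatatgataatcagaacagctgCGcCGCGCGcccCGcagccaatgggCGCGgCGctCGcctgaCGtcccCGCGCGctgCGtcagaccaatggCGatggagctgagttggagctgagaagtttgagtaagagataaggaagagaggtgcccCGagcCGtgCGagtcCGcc
Myf5 had 3 CpG, Myog 9, Hand2 17 and Isl1 37, where the median of 32851 promoters of this length was 7. The 3 listed promoters of Mef2c had 1, 10 and 4. The E-box, searched as CANNTG (the same motif on both strands), occurred 2 times in Myog, at -138 and -12 from the start, 2 times in Hand2 (-246 and -235), 1 time in Isl1 (-103) and not in Myf5. At least 1 match was found in 72.3% of all these promoters. A match is a description of the letters and not of binding.

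Hand2 and Hand1, bHLH factors of the developing ventricles, limb and branchial arches, had the highest H3K27 of these genes over input when both lines are read together. Hand2 had 40 H3K27 reads in each line beside 5 input reads in mK3 and 8 in mK4. This is 4.20-fold over input in mK3 (1.66 to 13.6) and 4.02-fold in mK4 (1.86 to 9.94), as ratios of read shares. Hand2 was the only one of the 8 genes marked by H3K27 in both lines, as were 2.85% of all genes. Its log2 ratio, formed on counts scaled to equal totals with 5 added, was 1.58 in mK3 and 1.61 in mK4, at percentiles 97.7 and 98.5 of all genes. Both values were reached by 54 genes (0.246%), Hand2 included. Hand1 had 36 H3K27 reads in mK3 and 22 in mK4 beside 8 and 4 input reads. The ratios were 2.36-fold (1.08 to 5.88) and 4.42-fold (1.501 to 17.6). On the log2 scale these were 0.99, just under the 2-fold line, and 1.47, so that Hand1 counted as marked in mK4.

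**Figure D1:**
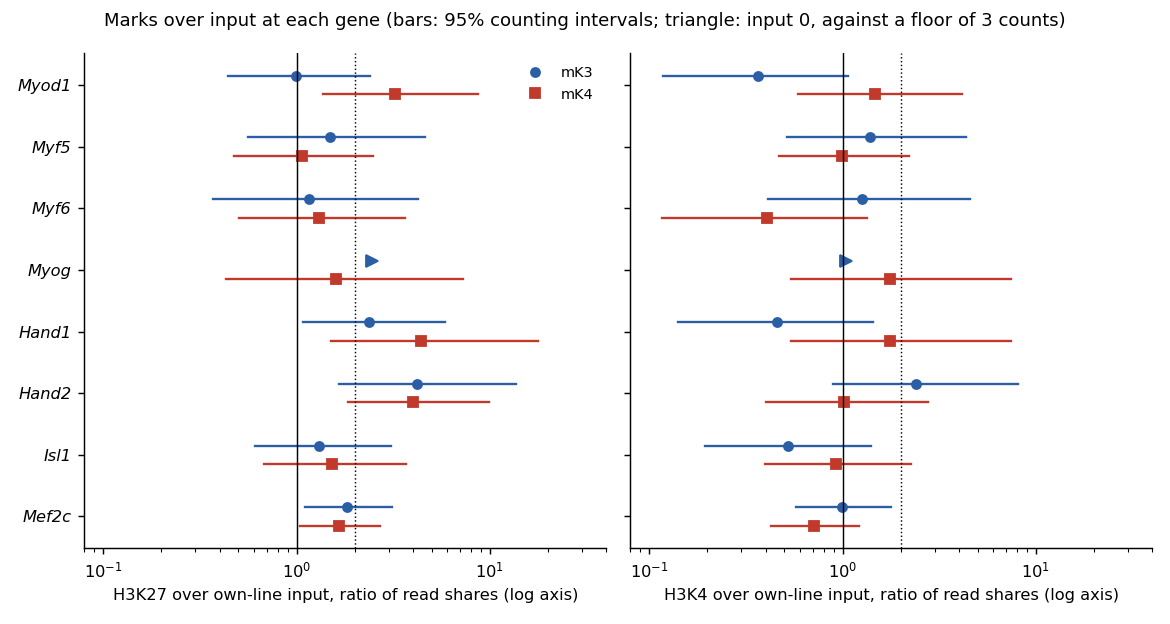
H3K27 (left) and H3K4 (right) over the input of the same line at each gene, as ratios of read shares on a log axis with 95% counting intervals. Solid and dotted lines stand at 1 and 2, and triangles stand for Myog in mK3, whose input count was 0, against a floor of 3 input counts and without error. The H3K27 intervals of Hand1, Hand2 and Mef2c lie above 1 in both lines, whereas no H3K4 interval does so in either line.

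Isl1, a LIM homeodomain factor of second heart field progenitors and motor neurons, stayed close to input in both lines. It had 25 and 19 H3K27 reads in mK3 and mK4 beside 10 input reads in each. The ratios were 1.31-fold (0.609 to 3.06) and 1.53-fold (0.675 to 3.68), and both intervals hold 1. Mef2c, a MADS-box factor with the longest exons of the set (6577 bases), had the most reads and the narrowest intervals. Its 73 and 58 H3K27 reads beside 21 and 28 input reads gave 1.83-fold (1.11 to 3.12) and 1.66-fold (1.04 to 2.71). Both were above 1 and below the 2-fold line.

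Among the myogenic genes, Myf5 and Myf6 lay near input for H3K27. Myf5, with Myod1 a determination gene of muscle precursors, had 17 and 16 H3K27 reads in mK3 and mK4 beside 6 and 12 input reads (1.49-fold, 0.560 to 4.61, and 1.07-fold, 0.476 to 2.48). Myf6 had 11 and 13 H3K27 reads beside 5 and 8 input reads (1.16-fold, 0.370 to 4.24, and 1.31-fold, 0.502 to 3.63). These 2 genes are next to each other on chromosome 10 and share their surroundings.

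Myod1 read differently in the lines over own-line input. It had 19 H3K27 reads and 10 input reads in mK3, a ratio of 0.998 (0.441 to 2.40). In mK4 it had 28 and 7, a ratio of 3.21 (1.37 to 8.72), and was marked. Its H3K27 reads per total were 1.82-fold higher in mK4 (0.979 to 3.44) and its input reads 0.564-fold (0.182 to 1.64). Each interval holds 1, and a difference in H3K27 between the lines was not detectable at this depth. The background matters here as well. Against the input of Myod1 and its 10 measured neighbours on each side per exon kilobase, its log2 H3K27 ratio was 0.80 in mK3 and 0.82 in mK4. Myog, which drives the fusion and differentiation of myoblasts, had 14 H3K27 reads in mK3 with no input read. Against a floor of 3 counts in the input library it was at least 2.45-fold over input there, if the 14 reads are taken as exact. With their counting error, the lower limit of the interval was 1.74. In mK4 it had 8 H3K27 and 4 input reads (1.61-fold, 0.431 to 7.29). Its log2 ratio in mK3 (1.78) depends on the added count and on the missing input reads. An input count of 0 still allows up to 6.50 RPKM (reads scaled by exon length and library total) at this gene, and its mK4 input stood at 6.98.

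In all, H3K27 marked 2 of the 8 genes in mK3 (Hand2 and Myog), where 10.3% of all genes were marked, and 3 in mK4 (Hand1, Hand2 and Myod1), against 9.06%. The unmarked genes closest to the line, which stands at 1 on the log2 scale, were Hand1 in mK3 (0.99) and Mef2c in mK4 (0.67). The marked genes closest to it were Hand2 in mK3 (1.58) and Myod1 in mK4 (1.29). The median log2 ratio of the 8 genes was 0.59 in mK3 and 0.57 in mK4, where the median of all genes was 0.00 in both lines. With Myog at its bound of 1.29, the mK3 median was again 0.59. H3K27 intervals lay above 1 at 4 genes in each line, Hand1, Hand2, Mef2c and Myog in mK3 (11.3% of all genes) and Hand1, Hand2, Mef2c and Myod1 in mK4 (12.1%). The background matters for these counts. With the input of the gene and its 10 measured neighbours on each side per exon kilobase as background, none of the 8 genes was marked by H3K27 in either line, against 2.53% and 3.2% of all genes. Against exon length alone, only Hand2 in mK4 was marked (backgrounds 2.38% in mK3 and 3.51% in mK4). Against the pooled input of both lines, 3 genes were marked in mK3 (7.72% of all genes) and Hand2 alone in mK4 (7.6%).

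Summed reads carry less counting error than single genes, although single genes are not replicates. The 4 heart genes together had 174 H3K27 and 44 input reads in mK3, a ratio of 2.08 (1.48 to 2.96), and 139 and 50 in mK4, a ratio of 2.23 (1.61 to 3.15). The 4 myogenic genes had 61 and 21 in mK3, a ratio of 1.53 (0.916 to 2.64), and 65 and 31 in mK4, a ratio of 1.68 (1.08 to 2.67). The intervals of these sums overlap, and the difference between heart and myogenic genes was not tested.

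H3K4 did not lie over input at these genes as a set. Summed over the 8 genes, H3K4 over input was 0.974 in mK3 (0.715 to 1.34) and 0.949 in mK4 (0.718 to 1.26). The counts in mK3 and mK4 were 7 and 19 at Myod1, 16 and 22 at Myf5, 12 and 6 at Myf6, and 6 and 13 at Myog. They were 7 and 13 at Hand1, 23 and 15 at Hand2, 10 and 17 at Isl1 and 40 and 37 at Mef2c. H3K4 marked 1 gene in mK3, Myog, against 4.94% of all genes, and none in mK4, against 3.69%. No gene of the 8 had H3K4 marked in both lines (0.811% of all genes), and Myog in mK3 was the only one with both marks in a line (1.39% in mK3, 0.78% in mK4). The mK3 call of Myog rests on 6 H3K4 reads over an input count of 0. The ratio is at least 1.05 against the floor of 3 counts if the 6 reads are taken as exact, and with their counting error the lower limit is 0.616. With exon length as background it was not marked, nor was any of the 8 genes by H3K4 (5.74% and 6.24% of all genes in mK3 and mK4), and the same held with local input (4.84% and 4.95%) and with pooled input (2.72% and 2.64%). Hand2 in mK3, with 23 H3K4 reads, came next at 2.41-fold (0.895 to 8.10), a log2 ratio of 0.91. No H3K4 interval of the 8 genes lay above 1 (6.21% of all genes in mK3, 6.61% in mK4) or below 1 (7.07% and 7%). For comparison, H3K4 marked 1 of 14 housekeeping genes in mK3 (B2m, 15 reads beside 1 input read) and none in mK4. Their median log2 ratios were 0.22 and 0.09. H3K4 calls over exons thus did not set the 8 genes apart from housekeeping genes.

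H3K27 was also set directly against H3K4 within a line, a ratio that needs no input. Over the 8 genes it was 1.95 in mK3 (1.56 to 2.45) and 2.13 in mK4 (1.71 to 2.66), and without Mef2c, the gene with the most reads, 2.01 (1.53 to 2.65) and 2.06 (1.59 to 2.68). Hand1 had the highest ratio in mK3, 5.16 (2.27 to 13.7), and 2.51 in mK4 (1.21 to 5.43). Hand2 had 1.75 in mK3 (1.02 to 3.05) and the highest ratio in mK4, 3.96 (2.14 to 7.71). Myod1 had 2.72 (1.10 to 7.67) and 2.19 (1.18 to 4.14), although only mK4 counted as marked over input. In mK3 its H3K27 stood level with input (0.998) and its H3K4 at 0.366-fold (0.118 to 1.07). Myf5 had 1.07 (0.507 to 2.26) and 1.08 (0.530 to 2.15), the most even balance of the set over both lines. Intervals above 1 were found at 5 genes in each line, where 18.8% of all genes had one in mK3 and 18% in mK4. The 5 were Hand1, Hand2, Mef2c, Myod1 and Isl1 in mK3, with Myf6 in place of Isl1 in mK4. Over input, Isl1 in mK3 had 1.31-fold H3K27 and 0.523-fold H3K4, and Myf6 in mK4 had 1.31-fold and 0.406-fold. Each of these intervals over input holds 1. A ratio of read shares from 2 antibodies is not a ratio of mark amounts. None of the 8 genes had an interval below 1 (16.6% and 16.5% of all genes).

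Levels were compared between genes only per exon length, as RPKM. In mK3, H3K27 was highest at Hand1 (31.9) and Hand2 (30.1), then Mef2c (18.7), Myod1 (17.3), Isl1 (16.6), Myog (15.9), Myf6 (14.8) and Myf5 (13.7). Of the 7 steps between neighbours in this order, the interval of the ratio excluded 1 only from Hand2 to Mef2c (1.61, 1.07 to 2.40). In mK4 the order was Hand2 (37.2), Myod1 (31.3), Hand1 (24.1), Myf6 (21.6), Mef2c (18.3), Myf5 (15.9), Isl1 (15.6) and Myog (11.2), and no step excluded 1. The highest gene in mK4, Hand2, exceeded the lowest, Myog, 3.31-fold (1.53 to 8.20). This pair was picked as the extremes of the 8, and the interval makes no allowance for that choice. The median H3K27 level of the 8 genes was 16.95 in mK3 and 19.96 in mK4, beside 14.98 and 13.7 over all genes. For H3K4 no step in either line excluded 1, and the levels ran from 6.19 at Hand1 to 17.3 at Hand2 in mK3 and from 6.72 at Myf6 to 14.8 at Myf5 in mK4. The 8 genes had a median H3K4 level of 8.51 in mK3 and 9.49 in mK4, beside 13.5 and 13.1 over all genes. Their median input level was also below that of all genes, 11.47 against 14.3 in mK3 and 9.98 against 13.9 in mK4.

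**Figure D2:**
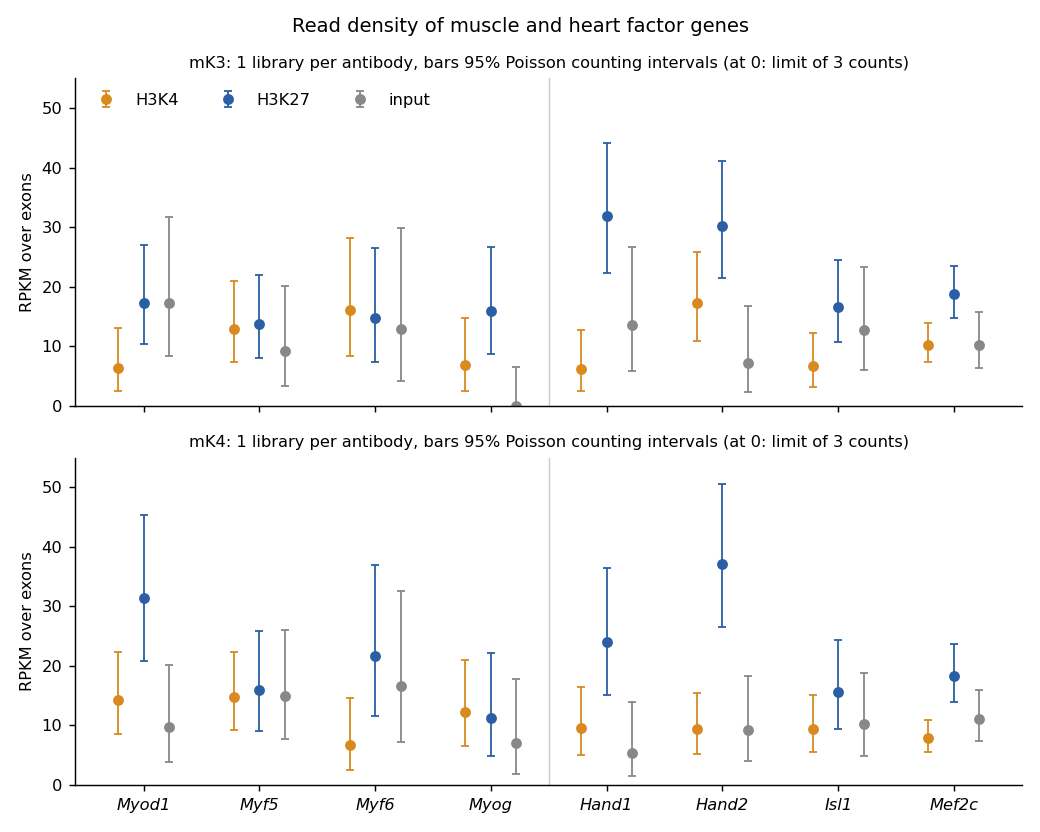
Read density (RPKM over exons) of the 8 genes in the H3K4, H3K27 and input libraries of mK3 (top) and mK4 (bottom), with 95% Poisson counting intervals, 1 library per point. H3K27 at Hand1 and Hand2 stands above the other genes in mK3, and the Myog input of mK3 is at 0 with its upper limit of 6.50.

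Between the lines, none of the 8 genes was called higher or lower in mK4 for either mark, where a call needs a marked gene and a ratio of at least 2-fold. Over all genes, 0.424% were higher and 0.392% lower for H3K4, and 0.889% and 0.934% for H3K27. A count of 0 among 8 is close to these shares. The H3K27 sum over the 8 genes was 1.07-fold in mK4 over mK3 (0.882 to 1.296), that of H3K4 0.978-fold (0.762 to 1.26) and that of input 1.004-fold (0.715 to 1.41). The most extreme H3K27 values were 0.70 at Myod1 and -0.35 at Hand1 on the log2 scale, and those of H3K4 were 0.76 at Myod1 and -0.72 at Myf6. H3K4 at Hand2 was 0.544-fold in mK4 (0.264 to 1.09) while its H3K27 was 1.23-fold (0.775 to 1.96). No interval of these single genes between the lines lay above or below 1. Over all genes, 9.29% lay above and 10.7% below for H3K4, 7.56% and 8.25% for H3K27, and 6.97% and 7.59% for input.

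Input, read here as a measure of DNA amount, also differed between the lines around some of these genes. Myod1 lies on chromosome 7, which took 1.54 times the share of input reads in mK4 that it took in mK3 (1.51 to 1.58). For H3K4 this ratio was 1.55 and for H3K27 1.44. Summed over 10 neighbours to either side of Myod1, input stood at 1.08 on the log2 scale. The part of DNA amount in the Myod1 values was not tested. With that ratio subtracted, Myod1 stood at -0.38 for H3K27 and -0.32 for H3K4. Its own input did not follow the neighbours (-0.59). Chromosome 10 had an input ratio of 0.804, and the neighbours of Myf5 and Myf6 stood at -0.67 and -0.68. After subtraction, H3K27 was 0.83 at Myf5 and 1.06 at Myf6, which was marked in neither line and so was not called. At Hand2 the neighbours were level (-0.03).

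**Figure D3:**
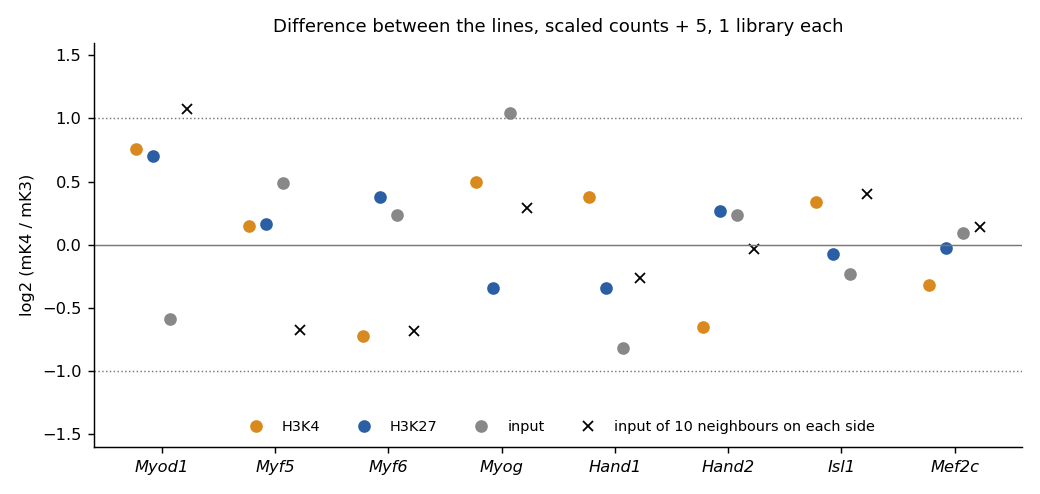
Log2 ratio of mK4 over mK3 at each gene for H3K4, H3K27 and input (scaled counts + 5) and for the summed input of 10 neighbours on each side (crosses). H3K4 and H3K27 of the 8 genes lie between the dotted 2-fold lines, while the input of Myog (1.04) and the neighbour input at Myod1 (1.08) lie past them.

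H3K27 was also read at the genes next to each member, ordered by RefSeq. Hand1 and Hand2 each had the highest H3K27 ratio of the 11 genes made up of the gene itself and 5 measured neighbours on each side, in both lines. Their ratios rest on 4 to 8 input reads. Some gene ranks first in every such window, and the share of all genes that do so in both lines was not computed. The medians of the 10 neighbours were -0.39 in mK3 and -0.07 in mK4 around Hand1, and -0.15 and 0.14 around Hand2. The nearest genes of Hand2, Fbxo8 and Scrg1, had log2 ratios of -0.57 and 0.63 in mK3 and -0.40 and 0.20 in mK4. Those of Hand1, Sap30l and Larp1, had -0.61 and -0.39 in mK3 and -0.84 and 0.58 in mK4. Farther out, Gm12250 came close to Hand1 in mK3 (0.80), and Adam29 in the window of Hand2 was itself past the 2-fold line in mK4 (1.07). Isl1 ranked 2 of 11 in mK3 and 1 in mK4, among neighbours with medians of -0.11 and -0.51. The neighbours of Myod1 had medians of 0.92 in mK3 and 0.60 in mK4, and those of Myog 0.65 and 0.23. Beside Myod1, Otog and the potassium channel gene Kcnc1 had 0.94 and 1.14 in mK3 and 0.62 and 0.64 in mK4, and Myod1 ranked 9 of 11 in mK3 and 1 in mK4. Beside Myog, the adenosine receptor gene Adora1 and Ppfia4 had 1.19 and 1.26 in mK3 and 1.05 and 1.17 in mK4. Others beside it lay below input in mK4, with Btg2 at -1.80 and Tmem183a at -1.18. Myog ranked 1 in mK3 and 5 in mK4. Around Myf5 and Myf6 the neighbour medians lay between 0.11 and 0.32.

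**Figure D4:**
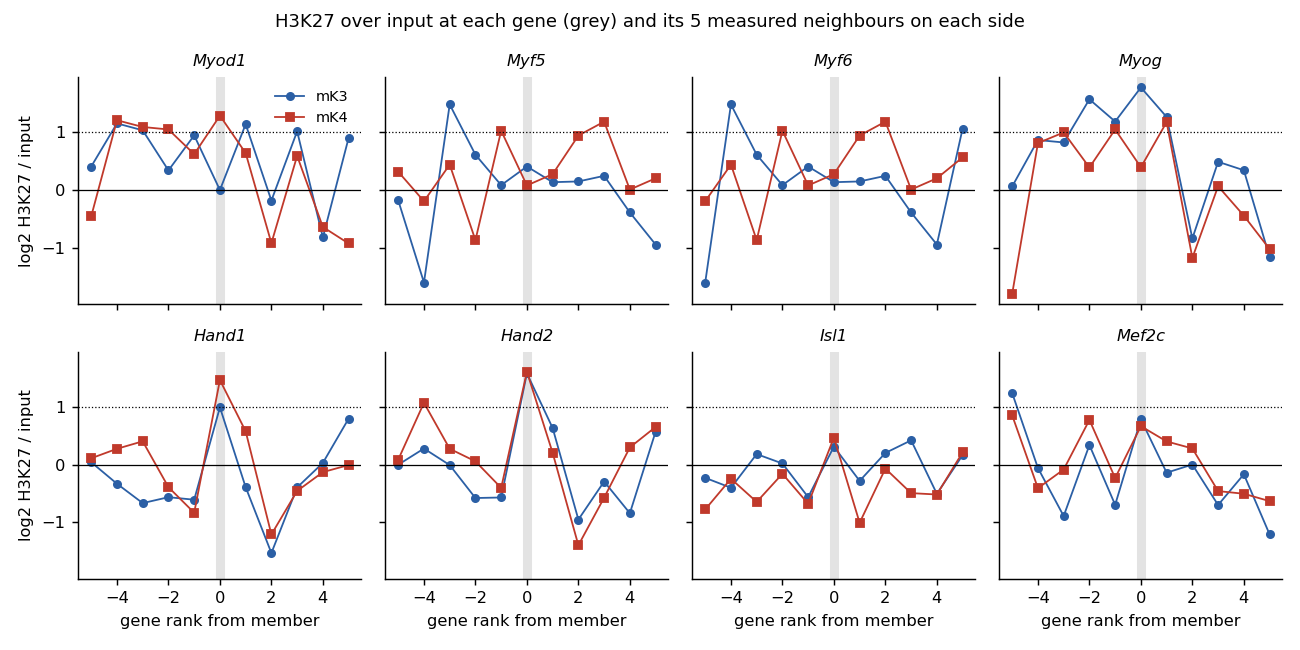
Log2 H3K27 over input (vertical axis) at each gene (rank 0, grey) and at its 5 measured neighbours on each side in gene order (horizontal axis), for mK3 and mK4. Hand1 and Hand2 are the highest of their 11 genes in both lines, while the neighbours of Myod1 have a median of 0.92 in mK3 and those of Myog one of 0.65.

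The wider muscle and heart programme was read from 6 lists with 78 genes. H3K27 marked 23 of them in mK3 and 17 in mK4 (10.3% and 9.06% of all genes), and H3K4 7 and 8 (4.94% and 3.69% of all genes). The list counts were formed over own-line input only. Other backgrounds, which changed the counts at the 8 genes, were not tried on the lists. The 22 skeletal muscle genes, which encode sarcomere, receptor and related proteins of fibres, had the highest list median of these 6 in mK3, 1.03 on the log2 scale, and 0.77 in mK4. With the 2 genes without mK3 input reads at their bound, the mK3 median was 0.85. H3K27 marked 11 in mK3 and 7 in mK4, of which 5 were shared. Acta1, skeletal alpha-actin, had 28 and 33 H3K27 reads beside 4 input reads in each line (3.68-fold, 1.29 to 14.4, and 6.63-fold, 2.36 to 25.8). Embryonic myosin Myh3 had 85 and 69 beside 19 and 13 (2.35-fold, 1.42 to 4.09, and 4.26-fold, 2.34 to 8.41). Reads at the clustered myosin genes may be shared among similar copies. The acetylcholine receptor genes Chrnd and Chrng were marked in both lines as well, with log2 ratios of 1.33 and 1.11 in mK3 and 1.43 and 1.80 in mK4.

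Of 17 other cardiac factors, H3K27 marked 6 in mK3 and 5 in mK4, with medians of 0.64 and 0.77. Tbx1, a T-box factor of the second heart field, had 56 and 19 H3K27 reads beside 9 and 2 input reads. Irx4, a ventricular Iroquois factor, had 30 and 31 beside 5 and 1, and Mesp1, a factor of the earliest cardiac mesoderm, had 19 in each line beside 0 and 1. These 3 and Gata5 were marked in both lines. Tbx1 was the only gene of the 6 lists called lower for H3K27 in mK4 (marked and at least 2-fold), with a log2 ratio of -1.08 beside -1.37 for its input. Tbx5 (-1.40) and Meox2 (-1.02) had ratios past 2-fold as well but were marked in neither line. The 16 cardiac muscle genes had 1 marked in mK3, Myh7, and 2 in mK4, Myl4 and Tnni3, counts near the share of all genes, with medians of 0.26 and 0.43. Tnni3, cardiac troponin I, was the only gene of the 6 lists called higher for H3K27 in mK4 (1.04, from 3 and 10 reads). Casq2 had a larger ratio (1.36, from 21 and 51 reads, with 1.52 for its input) but was marked in neither line. The muscle precursor genes Pax3 and Lbx1 were marked in both lines. Pax3 had 66 and 43 H3K27 reads beside 12 input reads in each line, and Lbx1 34 and 28 beside 2 and 5. Pax7 was marked in mK3 alone (1.04 and 0.57). None of the other Mef2 genes was marked, and Mef2a and Mef2d lay below 0 in both lines.

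The 12 bHLH partners and inhibitors had H3K27 medians of -0.44 in mK3 and -0.03 in mK4. H3K27 marked 2 of them in mK3, Msc (1.33) and Mdfi (1.05), and 1 in mK4, Tcf21 (1.03). The calls of Mdfi and Tcf21 rest on 14 and 10 H3K27 reads beside 2 input reads each. Their fold intervals (0.844 to 33.3 and 0.856 to 37.7) hold 1, while that of Msc (1.29 to 14.4) lies above 1. Id proteins bind E-proteins and keep them from myogenic partners. Id1 had 104 and 172 H3K4 reads beside 14 and 26 input reads (3.89-fold, 2.21 to 7.35, and 3.58-fold, 2.36 to 5.64), and 14 and 13 H3K27 reads. Id3 had 111 and 100 H3K4 reads beside 22 and 18 and 17 and 9 H3K27 reads. Id1, Id2 and Id3 were marked by H3K4 and not by H3K27 in both lines, where H3K4 marked 0.811% of all genes in both. By these calls Hand2 was the reverse, marked by H3K27 and not by H3K4 in both lines. The contrast was not clear in mK3. Its H3K4 log2 ratio there was 0.91, just under the 2-fold line, beside 5 input reads. With a pseudocount of 1 it was 1.17, past the line. In mK4 its H3K4 log2 ratio was 0.02. Id4 was marked by neither H3K4 nor H3K27 in either line. In mK3 and mK4 its H3K4 was 0.756-fold and 1.23-fold over input and its H3K27 1.08-fold and 1.97-fold. The E-protein gene Tcf3 stood at -1.11 and -0.68 for H3K27. For comparison, none of 14 housekeeping genes was marked by H3K27 in either line (medians -0.35 and -0.48, the first being -0.60 with 1 gene at its bound), and 3 and 2 of 10 blood and immune genes were (medians 0.78 and 0.58). Of the 14 metanephric factors, H3K27 marked 2 in mK3 (Six2 and Lhx1) and 1 in mK4 (Hoxc11), with medians of 0.31 and -0.10. The metanephric counts, and none among 14 housekeeping genes, are not far from the shares of all genes, 10.3% and 9.06%.

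**Figure D5:**
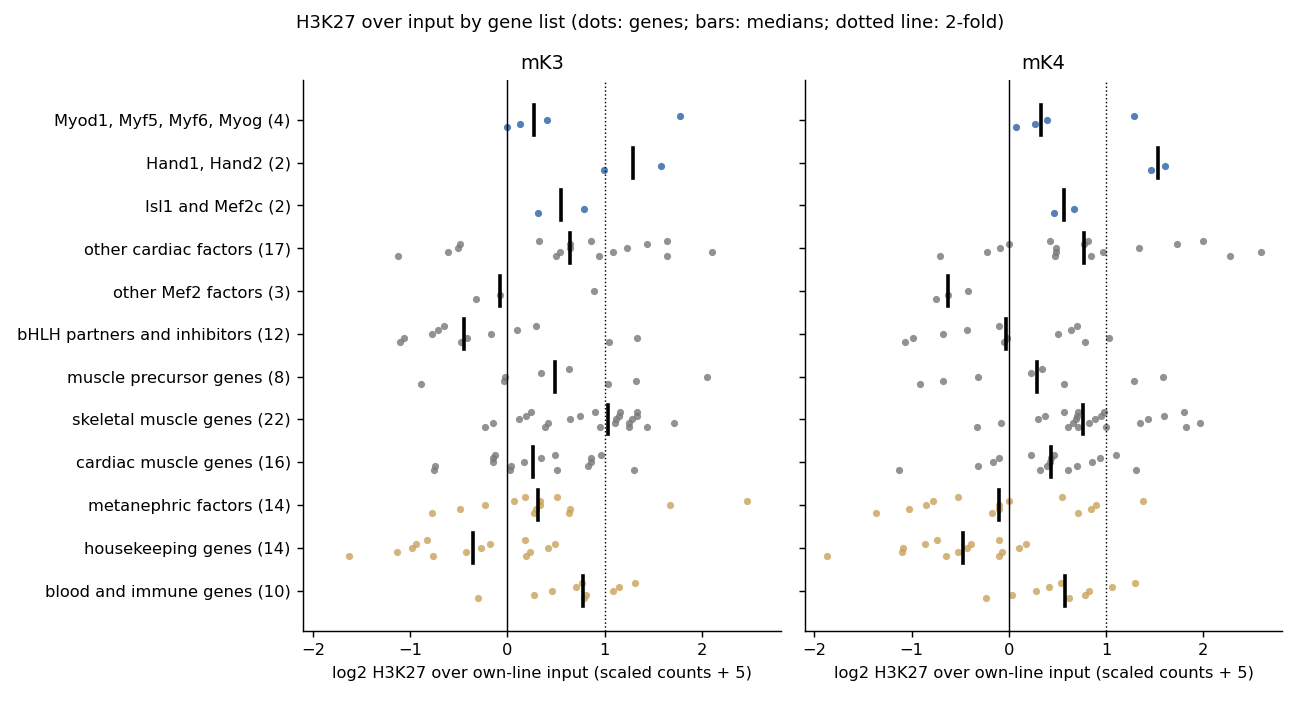
Log2 H3K27 over own-line input (horizontal axis) for each gene of the fixed lists in mK3 (left) and mK4 (right), with list medians as black bars, 0 and 2-fold as solid and dotted lines and list sizes in brackets. The Hand factors have medians of 1.29 and 1.54, and the myogenic factors 0.27 and 0.33.

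Promoter CpG content did not order the genes by H3K27. Hand2, with 17 CpG, stood at 1.58 and 1.61, while Isl1, with 37, stood at 0.31 and 0.47 and Myf5, with 3, at 0.40 and 0.08. Over all genes with a promoter, ranked by the highest CpG count of their promoters, H3K27 marked 16.1% of the 4112 genes with 0 to 5 CpG in mK3 and 13.0% in mK4. It marked 5.95% and 5.11% of the 3561 genes with 27 to 67. Myf5 belonged to the former group and Isl1 to the latter, while Myog, Mef2c and Hand2 lay between. These are exon reads, and the printed windows lie mostly outside them.

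The genes most like these in pattern were sought over 4 values, the log2 ratios of H3K4 and H3K27 over input in both lines, among 10880 genes with at least 100 reads. Likeness was the Euclidean distance, smaller being closer. Nearest to Hand2 were Lgi1 (0.24), B3gnt3 (0.26) and Thsd1 (0.35), and nearest to Mef2c were Rab3c (0.10), Ptprb (0.13) and Accn2 (0.13). The other 6 genes had fewer than 100 reads and were not searched. Lgi1 had 48 and 62 H3K27 reads beside 7 and 16 input reads, close to the 40 and 40 beside 5 and 8 of Hand2.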

How the data were processed

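The deposited files give, per the file headers, a read count over exons, an exon length and an RPKM value for 22088 gene rows in each of 6 libraries. The genome build is mm9, per the submitters' processing notes. Which aligner was run, how long reads were and whether duplicates stayed in is not given in the sources used here. The deposited RPKM is the count scaled by exon length and by the library's total, and recomputing it from the counts differed by at most 2.69e-09 in relative terms. Of 137 symbols with several rows, the row with the highest mean share over the 4 ChIP libraries was kept. Counts were scaled to the mean total (513622), 5 was added and log2 ratios were formed. Folds with intervals are ratios of read shares with exact Clopper-Pearson intervals at 95%, and RPKM intervals are exact Poisson. Intervals and floors (3 counts) cover counting error only. No count model was fitted, since no group had replicates. The call rule was run on simulated counts, with signal planted only at genes above a minimum of expected mK3 input reads. Interval coverage was simulated at a single pair of mean counts. Calls at input counts as low as those of Myog were thus not covered. Gene order came from RefSeq start positions (GRCm38.p6, 19345 genes by symbol, 2304 by synonym). These positions served only to order the genes, while the counts rest on mm9. All members are named, with up to 4 genes per list chosen by the largest absolute mean H3K27 ratio over input. The nearest measured gene on each side, some farther neighbours chosen after their values were seen, and the 3 genes nearest in profile to Hand2 and to Mef2c are named as well, while those nearest to the median of the 8 members are not reported here. Other list genes, named where a count is small or singled out (Id2, Gata5, Tbx5, Meox2 and Casq2 among them), were chosen after their values were seen. Members and lists were chosen with earlier results of these data known. Computation used Python 3.11.15 with numpy 2.4.6, pandas 2.3.3 and scipy 1.17.1. Alternatives were pseudocount, scaling, a read minimum, the fold threshold and the background.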

Additional observations from a re-analysis of the deposited data

How the results depend on the processing

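No group had more than 1 library, so no replicate could be left out. No paired analysis was possible because each group has a single library and the groups share only replicate number 1. Where a count of called genes was above 0, it moved by over 1.5 times in 17 of 27 comparisons with an alternative. Where it was 0, it was again 0 in 53 of 57, several of them under backgrounds that do not enter a ratio between the lines. Genes marked by H3K4 in mK3 (1) became 2 with a pseudocount of 1 or a 1.5-fold threshold, and 0 with a pseudocount of 10, a minimum of 20 reads, a 3-fold threshold, exon length, pooled input or local input. Genes marked by H3K27 in mK3 (2) became 1 with a minimum of 20 reads or a 3-fold threshold, 4 at 1.5-fold, and 0 with exon length or local input. In mK4 (3) they became 1 with a 3-fold threshold, exon length or pooled input and 0 with local input. Between the lines, a 1.5-fold threshold called 1 gene lower for H3K4 (Hand2) and 1 higher for H3K27 (Myod1). Subtracting own input called 1 higher (Myod1, 1.29) and 1 lower (Myog, -1.38) for H3K27. Of 480 values of single genes under an alternative, 43 had the other sign, 28 of them with exon length or local input as background and 10 between the lines. Hand2 H3K4 in mK3 went from 0.91 to -0.19 with local input, and Isl1 H3K27 in mK4 from 0.47 to -0.27. Among called values the direction turned for Myog in mK3, to -0.77 and -0.57 for H3K4 with exon length and local input and to -0.0147 for H3K27 with exon length. Its input count of 0 is replaced in these backgrounds. For the other changes the cause was not tested. Under local input the H3K27 of Hand2 stood at 0.48 in mK3 and 0.77 in mK4, and that of Myod1 at 0.80 and 0.82. The ratio of H3K27 to H3K4 was 1.93 in mK3 and 2.17 in mK4 with median-of-ratios scaling. Input counts of 0 to 28 leave intervals several-fold wide.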
